A study of Mus musculus with 15 samples.

Results

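Kinase-dead RIPK1 was set against functional RIPK1 in mouse ileum whose epithelium had lost TAK1. The 5 DHO libraries came from mice labelled TAK1 IEC-KO Ripk1 D138N/D138N, in which both copies of Ripk1 carry the D138N allele and TAK1 was deleted in intestinal epithelial cells (IEC). The 5 HO libraries came from mice labelled TAK1 IEC-KO, with the same deletion and no Ripk1 allele named. The 5 WT libraries, labelled Tak1f/f, enter here as levels only and were not tested. Animals of all 3 genotypes, WT included, were given tamoxifen at 80 mg/kg into the peritoneum on 3 days in a row, and ileum was taken 3 days post induction. The comparison of DHO with HO bears on what RIPK1 kinase activity contributes to ileal inflammation after TAK1 loss. Of 25329 genes in the deposited table, 10870 reached at least 1 FPKM, a read count scaled by gene length and library size, in at least 5 of the 10 DHO and HO libraries. All of these were tested, with no choice by how they moved. Genes could pass this filter through 1 group alone, and such genes had to differ: 136 reached 1 FPKM in every DHO library and in no HO library, and 50 did so in every HO library and in no DHO library. They are left out of the called counts and medians of gene groups. A member described by itself is named as such where it is one of them. Its difference is then a description, given without a p-value, since the filter fixed its direction.

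The labels do not say which promoter drove the recombinase, and they give no age, sex or litter. The TAK1 deletion is named for epithelial cells, while the RNA came from whole ileum, so transcripts of muscle, vessels, nerves and immune cells are in every library and the Ripk1 allele is not tied to 1 cell type. Nothing states that libraries of a genotype came from separate animals, so p-values measure the spread between these libraries, which may be technical. In whole tissue, fewer cells of a type and less RNA per cell cannot be told apart.

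TAK1, the product of Map3k7, is the kinase that passes signals from TNF receptors, interleukin-1 receptors and Toll-like receptors to NF-κB and to the stress kinases. When it is missing, RIPK1 bound to the TNF receptor complex can use its own kinase activity to start apoptosis through FADD and caspase-8, or necroptosis through RIPK3 and MLKL. The D138N change removes the catalytic activity of RIPK1 and leaves its scaffold role in NF-κB signalling. In the small intestine, death of epithelial cells is followed by barrier loss, cytokine release and replacement of the lost cells from dividing crypt cells.

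Depth was even, with 39056055 to 40381442 reads recovered from the FPKM values of the DHO libraries and 39307462 to 40589889 from those of the HO libraries. The ileal identity of the libraries was checked with Fabp6, the bile acid binding protein of ileal enterocytes, which stood at 9557, 7682, 8871, 9781 and 7180.5 FPKM in DHO 1 to DHO 5 and at 0.0491, 1356, 4089, 3359 and 12973 FPKM in HO 1 to HO 5. Of the 10 libraries HO 1 alone held almost none of it. Fabp1, the fatty acid binding protein typical of more proximal gut, stood at 9.48, 7.11, 386, 354 and 6.30 FPKM in DHO and 2504, 5.81, 11.6, 9.87 and 9.69 FPKM in HO, so that DHO 3, DHO 4 and HO 1 stood apart with proximal transcripts. Cd79a, a component of the B cell receptor, stood at 27.5, 1.68, 1.34, 1.54 and 3.04 FPKM in DHO and 3.37, 22.1, 3.47, 57.2 and 2.15 FPKM in HO, and DHO 1, HO 2 and HO 4 stood apart as rich in B cell transcripts. DHO 3 and DHO 4 were also the closest pair of libraries within a group, with a chi-square per gene of 13.4 against 54.3 to 179 for the other DHO pairs and 88.9 to 447 for HO pairs. For the DHO 3 and DHO 4 pair this mean over genes, and the median of 2.89, were above the value near 1 that counting noise gives. Both libraries were kept. The measure cannot tell 2 animals from 2 preparations of 1 animal. Fits were repeated without the 3 libraries with proximal transcripts and without the 3 rich in B cell transcripts. Where this moved the count of a gene group by more than 1.5 times or ended the call of a named gene, the value without those libraries is also given. Their part in the differences was not tested beyond these values.

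**Figure D1:**
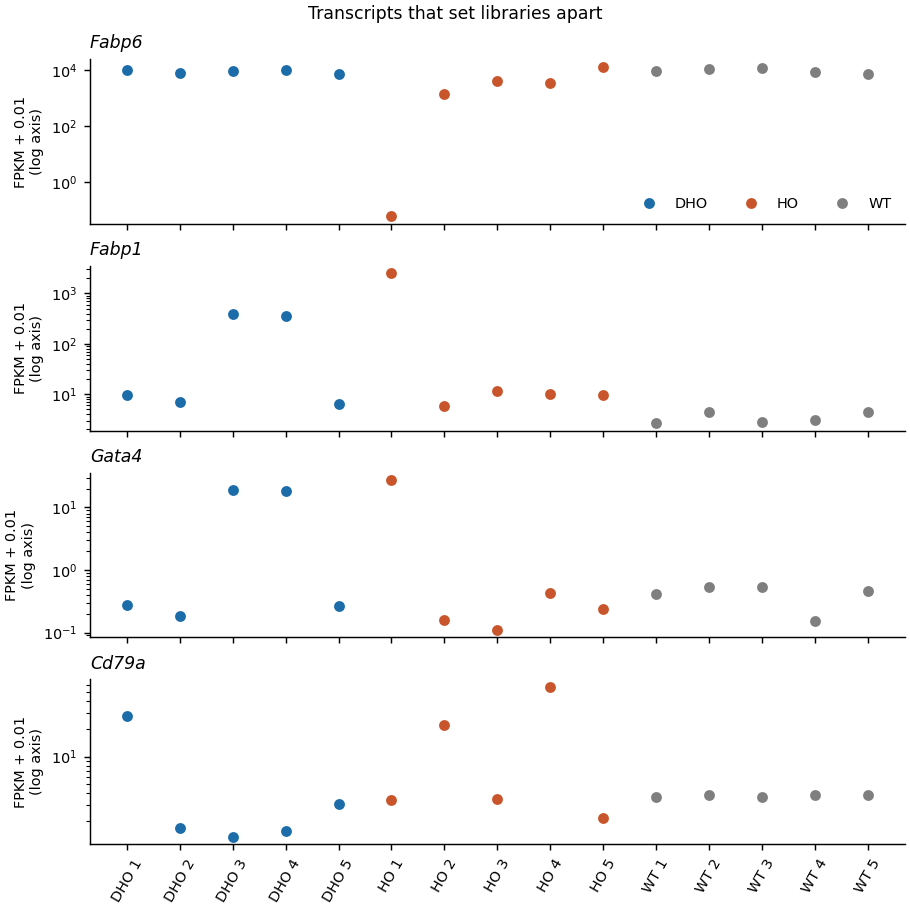
FPKM on a log axis (0.01 added) of Fabp6, Fabp1, Gata4 and Cd79a in each library, DHO 1 to DHO 5, then HO 1 to HO 5, then WT 1 to WT 5. Fabp1 and Gata4 are raised in DHO 3, DHO 4 and HO 1, Fabp6 is near 0 in HO 1 (0.0491 FPKM), and Cd79a is raised in DHO 1, HO 2 and HO 4.

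DHO and HO ileum differed broadly. Of the 10870 genes tested, 5322 passed the test (49.0%; limma-trend with Benjamini-Hochberg adjusted p under 0.05), of which 4091 were higher in DHO (37.6%) and 1231 lower (11.3%). A change of a doubling or more was reached by 1293 of the called genes (11.9%). In 3641 genes (33.5%) the 5 DHO values and the 5 HO values did not overlap. The excess of higher genes depends on the scale: the median change over all tested genes was 0.25 on the log2 scale, and rescaling each library to a median of ratios moved it to -0.01. After that rescaling 2202 genes were called higher in DHO (20.3%) and 2330 lower (21.4%). Counts for gene groups are therefore given as deposited and, where they differ by more than 1.5 times, after rescaling. They are to be read beside these shares over all tested genes. HO libraries also varied more among themselves, with a median SD per gene of 0.19 in DHO and 0.29 in HO on the log2 scale. On the first principal component, which held 56.6% of the variance, DHO libraries lay between -39.5 and -33.6 and HO libraries between 13.8 (HO 5) and 56.8 (HO 2). Without DHO 1, HO 2 and HO 4 the number of genes called fell to 2967, and without DHO 3, DHO 4 and HO 1 it was 4704.

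**Figure D2:**
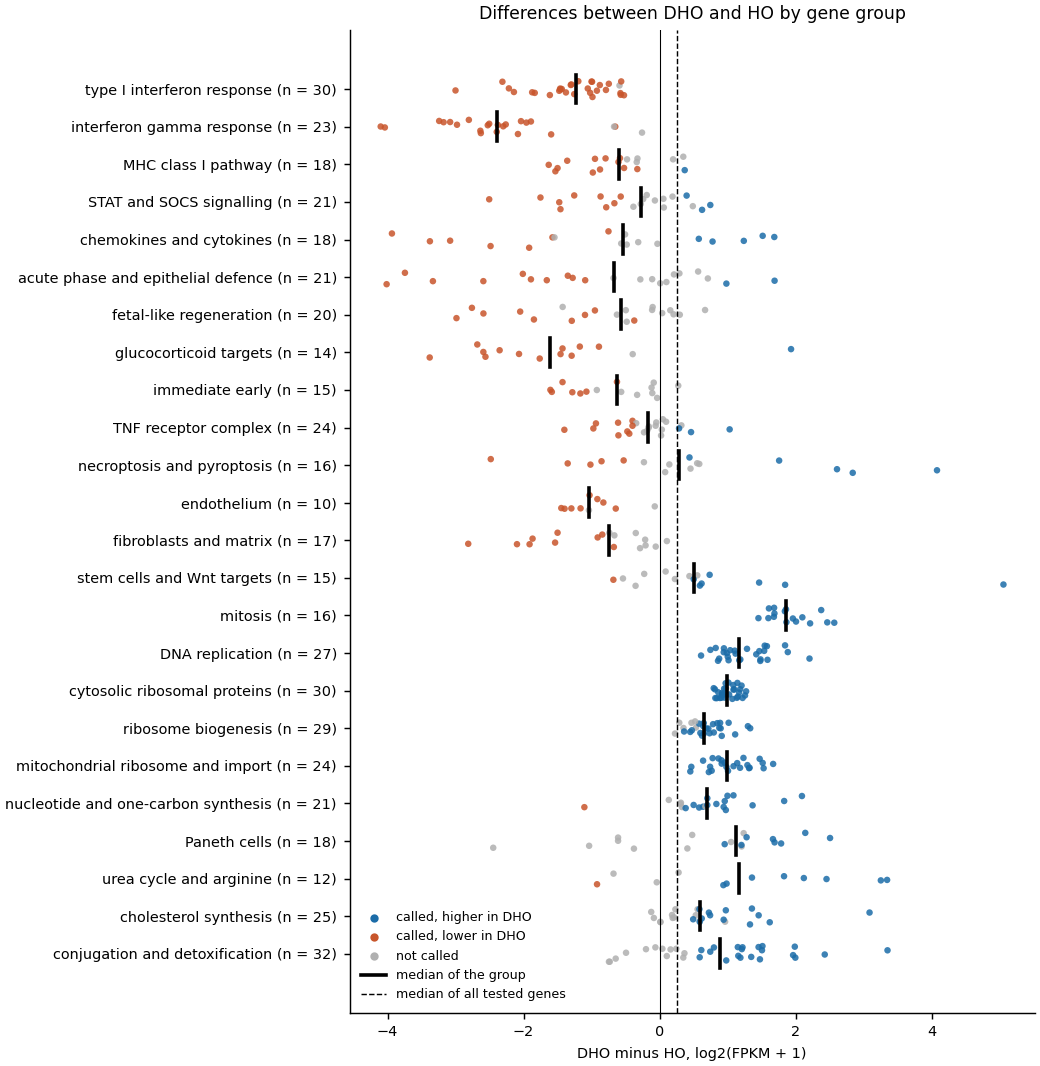
Difference of DHO minus HO in log2(FPKM + 1) for the members of 24 gene groups (1 point per gene; genes that passed the filter through 1 group alone are left out), with the median of each group as a bar and the median of all 10870 tested genes (0.25) as a dashed line. The medians of the interferon and glucocorticoid target groups lie left of 0, and every gene of the mitosis, replication and ribosomal protein groups lies right of it.

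Map3k7, which encodes TAK1 and is deleted in both groups, averaged 9.23 ± 0.7098 FPKM in DHO and 8.66 ± 1.04 FPKM in HO (SD, n = 5 each), beside 10.4 ± 0.803 FPKM in WT. The log2 difference of DHO minus HO was 0.09 ± 0.11 (SE) and did not pass the test (limma adjusted p = 0.536). A floxed exon and the D138N point change cannot be seen in counts over a whole gene, so these values do not check the labels. Ripk1 stood at 4.20, 4.43, 4.59, 4.26 and 4.00 FPKM in DHO and 5.80, 6.20, 5.64, 7.00 and 5.41 FPKM in HO. Its means were 4.30 FPKM in DHO and 6.01 FPKM in HO, beside 4.55 ± 0.339 FPKM (SD) in WT, so that DHO lay nearer to WT than HO did. Every DHO library was below every HO library, and the log2 difference was -0.40 ± 0.10 (adjusted p = 0.00708). It was -0.66 after rescaling, and without DHO 1, HO 2 and HO 4 it was -0.32 with adjusted p = 0.0843.

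Among 24 genes of the TNF receptor complex and its NF-κB branch, 9 were lower in DHO and 3 higher, with a median of -0.18 (1 higher and 16 lower after rescaling). The counts were 1 higher and 7 lower without DHO 3, DHO 4 and HO 1, and 2 higher and 5 lower without DHO 1, HO 2 and HO 4. The number higher was also 1 when DHO 1, DHO 2, DHO 3, DHO 5, HO 1 or HO 2 was left out. Over all tested genes 11.3% were lower and 37.6% higher, and 21.4% and 20.3% after rescaling. The TAK1 list below is to be read beside the same shares. In what follows a value before ± is the difference of DHO minus HO in log2(FPKM + 1), a value after it is its SE, and p-values are adjusted over all tested genes. Tnfaip3, which encodes the deubiquitinase A20 and is itself an NF-κB target, stood at 6.63, 5.504, 6.55, 6.53 and 5.9 FPKM in DHO and 23.6, 16.7, 15.2, 21.5 and 14.8 FPKM in HO (log2 difference -1.40 ± 0.14 SE, adjusted p = 6.61e-05). Tnf, the cytokine itself, passed the filter through HO alone. It stood at 0.338, 0.165, 0.286, 0.649 and 0.465 FPKM in DHO and 2.56, 2.08, 1.77, 3.16 and 1.21 FPKM in HO (-1.17 ± 0.17). For Tnfaip3 the lowest HO library lay above the highest DHO library. The genes of both TNF receptors, Tnfrsf1a (-0.94 ± 0.17) and Tnfrsf1b (-0.98 ± 0.15), were lower in DHO. Caspase-8 (Casp8, -0.61 ± 0.13, adjusted p = 0.00324) and its regulator cFLIP (Cflar, -0.40 ± 0.11, adjusted p = 0.0121) were lower as well, whereas the adaptor Fadd was higher (1.03 ± 0.18, adjusted p = 0.00112). The Cflar call was lost without DHO 3, DHO 4 and HO 1 (adjusted p = 0.103) and without DHO 1, HO 2 and HO 4 (adjusted p = 0.0623). Of the 19 tested members of the TAK1 complex and the kinases below it, 5 fell and 3 rose. After rescaling 10 fell and 1 rose, and without DHO 1 or DHO 2 the number that rose was 1. The counts were 2 that fell and 0 that rose without DHO 1, HO 2 and HO 4. Members of the list included Nfkbia, the inhibitor IκBα that NF-κB induces (-1.13 ± 0.19, adjusted p = 0.000852), and the NF-κB subunit Rela (-0.44 ± 0.10, adjusted p = 0.00504), both lower in DHO.

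Genes of lytic cell death divided into those that fell and those that rose. Of 16 genes of necroptosis and pyroptosis, 5 were lower and 5 higher in DHO, beside 11.3% lower and 37.6% higher over all tested genes. Mlkl, the pore-forming protein of necroptosis, stood at 6.33, 5.23, 5.66, 6.87 and 7.42 FPKM in DHO and 20.4, 13.6, 15.1, 19.1 and 20.6 FPKM in HO (-1.35 ± 0.14, adjusted p = 8.02e-05). Zbp1, a nucleic acid sensor that binds RIPK3 and is induced by interferon, stood at 21.6, 15.5, 37.4, 35.1 and 21.9 FPKM in DHO and 169, 139, 109, 159 and 152 FPKM in HO (-2.48 ± 0.23, adjusted p = 5.05e-05). For Zbp1 and Mlkl alike, no DHO library reached the lowest HO library. Ripk3 (-0.86 ± 0.20, adjusted p = 0.00557) and the pyroptosis executor Gsdmd (-1.02 ± 0.24, adjusted p = 0.00511) fell less far. On the other side stood the gasdermin C genes, near neighbours of similar sequence whose reads may be shared, which encode pore-forming proteins of enterocytes. Gsdmc4 was measured at 23.6, 40.4, 36.6, 44.8 and 32.9 FPKM in DHO and 1.46, 0.0769, 2.90, 0.172 and 2.65 FPKM in HO (4.07 ± 0.36, adjusted p = 5.03e-05). HO 2 and HO 4 held almost none of Gsdmc4, and no HO library came near the DHO range. Gsdmc2 (2.83 ± 0.23) and Gsdmc3 (2.36 ± 0.15, which passed the filter through DHO alone) were higher too. Pycard, the inflammasome adaptor ASC, was higher in DHO (2.603 ± 0.39, adjusted p = 0.000457). Nlrp6, an inflammasome sensor of the gut epithelium, stood at 42.8, 42.2, 41.6, 44.0 and 46.2 FPKM in DHO and 21.9, 3.35, 20.03, 5.12 and 29.7 FPKM in HO (1.75 ± 0.48, adjusted p = 0.0117). HO 2 and HO 4 held its lowest values, and without them and DHO 1 the difference was 0.86.

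Of 20 mitochondrial apoptosis genes, 4 were higher and 3 lower in DHO (2 higher and 6 lower after rescaling; 7 higher and 2 lower without DHO 3, DHO 4 and HO 1; 2 and 2 without DHO 1, HO 2 and HO 4). The shares over all tested genes were 37.6% higher and 11.3% lower, and 20.3% and 21.4% after rescaling. Bcl2l1, which encodes the survival factor BCL-XL, was lower (-1.25 ± 0.13, adjusted p = 8.6e-05), as was Pmaip1, which encodes the BH3-only protein NOXA (-1.60 ± 0.34, adjusted p = 0.00279). Bax, a pore former of the mitochondrial outer membrane, was higher by 0.69 ± 0.15, and by 0.38 after rescaling. Of 14 p53 targets, 3 were higher and 2 lower (1 lower when DHO 5, HO 2 or HO 3 was left out; 5 lower after rescaling). Among them Ccng1, which encodes cyclin G1, rose (0.99 ± 0.15, adjusted p = 0.000498) and Cdkn1a, which encodes the cell cycle inhibitor p21, fell (-0.89 ± 0.14, adjusted p = 0.000533).

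Interferon response genes fell together. Of 30 tested genes of the type I interferon response 29 were lower in DHO and none higher, with a median of -1.23; of 23 tested genes of the interferon gamma response 21 were lower and none higher, with a median of -2.40. The background for lower genes is 11.3%. These genes are switched on by factors of the STAT family, with IRF9 at interferon-stimulated response elements (searched here as GAAA, any 2 bases and GAAA again), or without it at gamma-activated sites (searched as TTCNNNGAA). The promoters of 4 genes among the strongest falls are shown because they carry such letters. Each runs from 250 bases before to 50 bases after the start site, on GRCm38.p6 from RefSeq, 5′ to 3′ on the strand of the gene. Capitals mark matches to either pattern on either strand.
Gbp2 (chr3:142620413-142620712, + strand): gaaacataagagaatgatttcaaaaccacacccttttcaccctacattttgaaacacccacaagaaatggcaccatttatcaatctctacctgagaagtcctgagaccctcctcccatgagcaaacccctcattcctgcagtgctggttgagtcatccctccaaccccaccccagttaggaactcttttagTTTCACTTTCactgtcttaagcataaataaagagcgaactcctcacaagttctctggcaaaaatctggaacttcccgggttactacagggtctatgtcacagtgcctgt
Gbp5 (chr3:142496684-142496983, + strand): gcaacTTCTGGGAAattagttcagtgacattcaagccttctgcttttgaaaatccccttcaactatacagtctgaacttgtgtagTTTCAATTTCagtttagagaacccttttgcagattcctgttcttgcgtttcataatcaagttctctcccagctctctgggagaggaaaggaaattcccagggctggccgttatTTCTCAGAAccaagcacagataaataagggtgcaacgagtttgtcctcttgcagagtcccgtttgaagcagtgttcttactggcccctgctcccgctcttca
Igtp (chr11:58199306-58199605, + strand): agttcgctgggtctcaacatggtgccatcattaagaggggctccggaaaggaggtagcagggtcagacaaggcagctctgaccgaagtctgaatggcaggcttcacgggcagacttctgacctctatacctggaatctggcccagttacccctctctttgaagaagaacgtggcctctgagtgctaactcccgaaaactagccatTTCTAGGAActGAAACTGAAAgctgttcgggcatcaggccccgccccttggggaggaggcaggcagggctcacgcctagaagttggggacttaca
Cxcl10 (chr5:92348840-92349139, - strand): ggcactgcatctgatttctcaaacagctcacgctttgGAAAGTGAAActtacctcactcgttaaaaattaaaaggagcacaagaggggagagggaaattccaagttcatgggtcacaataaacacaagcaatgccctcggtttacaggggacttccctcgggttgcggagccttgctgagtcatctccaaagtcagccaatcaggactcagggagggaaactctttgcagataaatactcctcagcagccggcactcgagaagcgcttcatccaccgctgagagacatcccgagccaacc

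The spaced GAAA pair, on either strand, occurs in 3.99% of the promoters of the same length of all 27025 genes in the RefSeq table, and in 3.95% of those of tested genes (345 of 8729 matched). It occurs in 14 of 23 matched promoters of the type I list (60.9%), in 10 of 15 of the interferon gamma list (66.7%), in 9.42% of promoters of genes called lower in DHO and in 2.54% of those called higher. TTCNNNGAA occurs in 9.55% of all promoters and in 8 of 15 of the interferon gamma list (53.3%). A match of letters is a description and was not tested for binding.

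Gbp2, a guanylate-binding protein that acts on intracellular pathogens, stood at 7.15, 12.4, 13.7, 14.2 and 17.0 FPKM in DHO and 154, 401, 174, 489 and 119.8 FPKM in HO (-4.10 ± 0.38, adjusted p = 5.33e-05). Gbp5, of the same family, stood at 0.875, 1.38, 0.765, 0.702 and 1.73 FPKM in DHO and 17.7, 17.7, 16.8, 38.8 and 7.90 FPKM in HO (-3.18 ± 0.32, adjusted p = 6.6e-05). HO 5 held less of both than the other HO libraries and was still above every DHO library. Igtp, an immunity-related GTPase, stood at 16.5, 12.4, 29.4, 31.7 and 22.2 FPKM in DHO and 321, 182, 131, 264 and 196 FPKM in HO (-3.24 ± 0.29, adjusted p = 5.03e-05). No DHO library came near the lowest HO library, HO 3, for Igtp. An adjusted p as small as that of Igtp was also reached by Gbp4 (-2.98 ± 0.26, adjusted p = 5.03e-05), Gbp7 (-2.81 ± 0.23, adjusted p = 5.03e-05) and Irgm2 (-2.26 ± 0.19, adjusted p = 5.03e-05). Guanylate-binding proteins and immunity-related GTPases are families of similar sequence, so reads of their members may be shared.

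Usp18, which removes ISG15 from proteins and restrains the type I receptor, stood at 12.9, 5.10, 16.5, 14.7 and 13.1 FPKM in DHO and 167, 119.9, 42.3, 118 and 102 FPKM in HO (-3.001 ± 0.36, adjusted p = 0.000168). DHO 2 was the lowest of DHO, and HO 3, the lowest of HO, lay above every DHO library. The antiviral enzyme viperin (Rsad2, -2.14 ± 0.27, adjusted p = 0.000194) and the apoptosis regulator Xaf1 (-1.46 ± 0.18, adjusted p = 0.000172) followed. In WT libraries the level of Usp18 was 9.79 ± 3.63 FPKM. The transcription factor Stat2, which carries the type I signal, fell by 1.26 ± 0.17 (adjusted p = 0.000237).

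**Figure D3:**
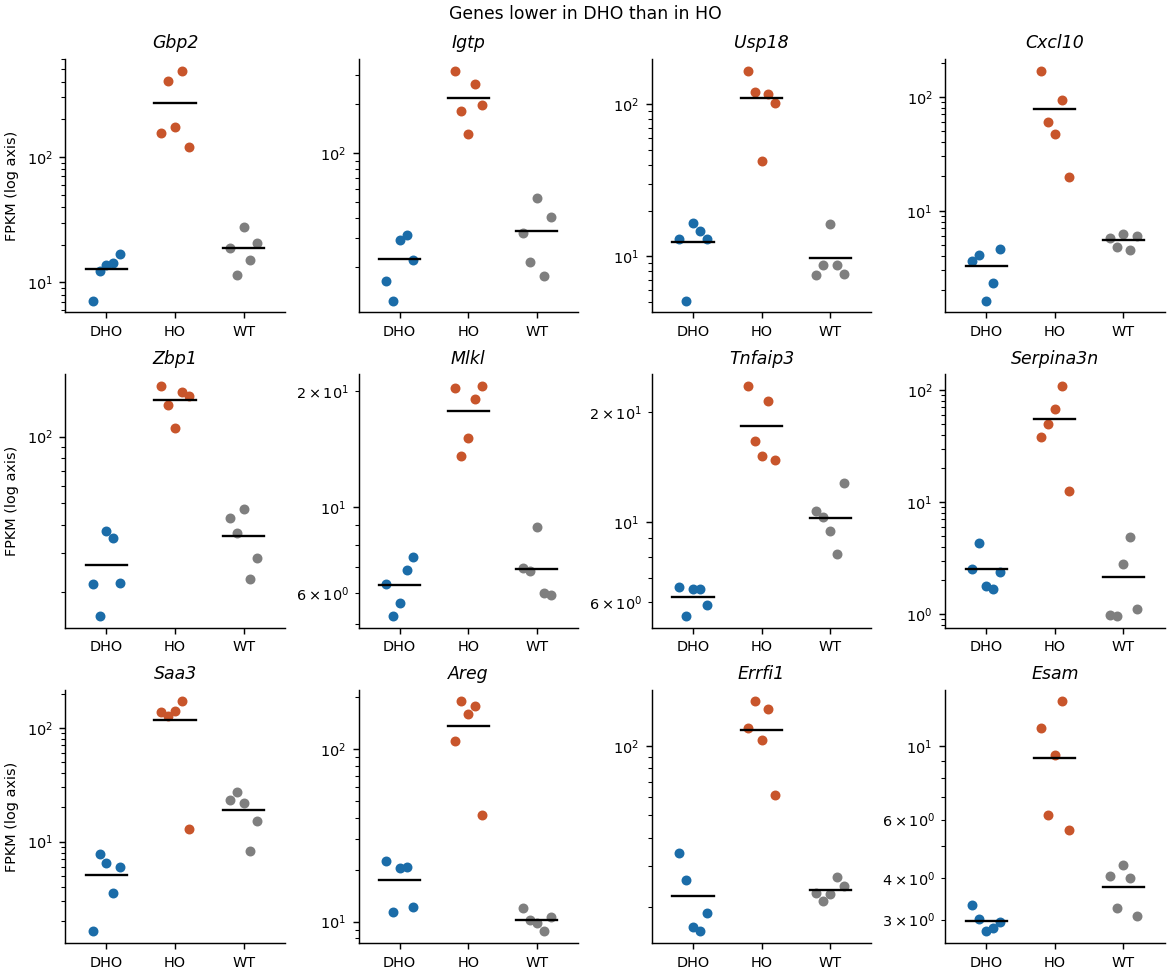
FPKM on a log axis in each library for 12 genes that were lower in DHO, with DHO at the left of each panel, HO in the middle and WT at the right (points are libraries, bars are group means, n = 5 each). For Gbp2 the DHO libraries lie at 7.15 to 17.0 and the HO libraries at 119.8 to 489 FPKM, and HO 5 is often the HO library nearest to DHO.

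Antigen presentation by class I molecules belongs to the same response. Over all tested genes 11.3% were lower in DHO and 37.6% higher. In the class I pathway 12 of 18 tested genes were lower in DHO, against 1 higher. That 1 call was lost after rescaling, without either set of 3 libraries that stood apart, and when DHO 1, DHO 3, DHO 4, DHO 5, HO 1, HO 2 or HO 4 was left out, and 2 were higher without HO 3. Tap2, a subunit of the peptide transporter, fell by 1.502 ± 0.16 (adjusted p = 8.05e-05) and its partner Tap1 by 1.63 ± 0.26 (adjusted p = 0.000592). Psmb8, a catalytic subunit of the immunoproteasome, stood at 73.7, 62.4, 92.5, 90.8 and 66.3 FPKM in DHO and 218, 195, 155, 239 and 188 FPKM in HO (-1.36 ± 0.15, adjusted p = 0.000122), and no HO library came as low as a DHO library. The loading factor Tapbp fell by 0.98 ± 0.14. Of 9 class II genes, 1 was lower and none higher, near the 11.3% lower over all tested genes. That call was lost when DHO 3, DHO 4, HO 2, HO 3 or HO 4 was left out and without DHO 1, HO 2 and HO 4. The class II counts were 1 higher and 1 lower without HO 1 and without DHO 3, DHO 4 and HO 1.

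Chemokines held lower and higher genes, beside 11.3% lower and 37.6% higher over all tested genes (21.4% and 20.3% after rescaling). Of 18 tested chemokines and cytokines, 7 were lower and 5 higher in DHO (9 lower and 3 higher after rescaling; 5 lower and 3 higher without DHO 1, HO 2 and HO 4). Cxcl10, which draws T cells through CXCR3, stood at 3.60, 4.12, 1.63, 2.33 and 4.63 FPKM in DHO and 170, 59.8, 47.1, 93.2 and 19.6 FPKM in HO (-3.94 ± 0.47, adjusted p = 0.00015), and Cxcl9, a ligand of the same receptor, fell by 3.08 ± 0.55 (adjusted p = 0.0013). Ccl2, which draws monocytes, stood at 0.0945, 2.95, 0.247, 0.433 and 0.762 FPKM in DHO and 23.4, 12.6, 19.99, 35.8 and 5.43 FPKM in HO (-3.38 ± 0.46, adjusted p = 0.000299), and all HO libraries were above all DHO libraries for both Cxcl10 and Ccl2, with HO 5 the nearest. The relative Ccl7 fell by 2.49 ± 0.34 (adjusted p = 0.000325). The epithelial chemokines of the resting gut were among those that rose: Ccl28, which draws IgA plasma cells, by 1.68 ± 0.24 (adjusted p = 0.000423), and Ccl25, which draws gut-homing lymphocytes, by 1.51 ± 0.32 (adjusted p = 0.00274). Ccl28 averaged 4.77 FPKM in DHO, 0.833 FPKM in HO and 16.1 FPKM in WT, so that DHO stayed below WT. Ccl25 averaged 152 FPKM in DHO, 58.7 FPKM in HO and 113 FPKM in WT. When DHO 1, DHO 2, DHO 5, HO 2 or HO 4 was left out, 3 of the list were called higher.

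Of 21 tested genes of STAT and SOCS signalling, 9 were lower and 3 higher in DHO (0 higher after rescaling, 1 without DHO 1, HO 2 and HO 4, and 5 without DHO 3, DHO 4 and HO 1). Shares over all tested genes were 11.3% lower and 37.6% higher, and 21.4% and 20.3% after rescaling. Socs1, the feedback inhibitor of interferon receptors, stood at 7.30, 4.84, 8.33, 9.42 and 4.64 FPKM in DHO and 40.9, 29.0, 29.3, 47.8 and 83.7 FPKM in HO (-2.51 ± 0.29, adjusted p = 0.000124). HO 5 was the highest of all and no DHO library reached the lowest HO library, HO 2. The interleukin-6 family receptor chains Osmr (-1.46 ± 0.20, adjusted p = 0.000327) and Il6st (-0.87 ± 0.18, adjusted p = 0.00234), and Stat3, the factor they act through (-0.67 ± 0.14, adjusted p = 0.00238), were all lower.

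Acute phase and defence genes, many of them induced by interleukin-6 or NF-κB, were lower in DHO for 10 of 21 and higher for 2 (4 without DHO 3, DHO 4 and HO 1, and 1 after rescaling and without DHO 1, HO 2 and HO 4), with a median of -0.68. Among all tested genes 11.3% were lower and 37.6% higher, and 21.4% and 20.3% after rescaling. Serpina3n, a secreted protease inhibitor, stood at 2.54, 4.28, 1.78, 1.67 and 2.39 FPKM in DHO and 38.3, 49.6, 67.4, 109 and 12.6 FPKM in HO (-3.74 ± 0.46, adjusted p = 0.000168). The groups did not overlap, and HO 5 was the lowest of HO. Saa3, a serum amyloid A protein made in tissues, stood at 1.63, 7.83, 6.51, 3.57 and 5.93 FPKM in DHO and 138, 128, 140.3, 171 and 12.9 FPKM in HO (-4.01 ± 0.64, adjusted p = 0.000675). HO 5 was far below the other HO libraries and still above DHO. Haptoglobin (Hp, -2.34 ± 0.30), which passed the filter through HO alone, Lrg1 (-2.01 ± 0.32) and the iron-binding lipocalin Lcn2 (-2.59 ± 0.49, adjusted p = 0.00166) fell too. The antibacterial lectins are among the most abundant transcripts: Reg3b averaged 20729 ± 5859.6 FPKM in DHO and 49345 ± 8879.7 FPKM in HO (SD, n = 5 each; -1.28 ± 0.21, adjusted p = 0.000805), and Reg3g 7851 ± 2604 FPKM in DHO and 18984 ± 2883 FPKM in HO (-1.35 ± 0.27, adjusted p = 0.002). Under quantile normalization, which forces the top of every library to 1 level, Reg3b no longer passed (log2 difference -0.20, adjusted p = 0.439). Ido1, the tryptophan-degrading enzyme induced by interferon gamma, fell by 1.89 ± 0.39 (adjusted p = 0.00269).

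Markers of the fetal-like epithelium that covers injured gut were lower in DHO for 9 of 20 tested and higher for none (1 higher without DHO 5 or HO 3, and 2 without HO 5). The shares over all tested genes were 11.3% lower and 37.6% higher. Ly6a, the surface protein Sca-1, stood at 50.4, 40.3, 52.5, 39.2 and 85.9 FPKM in DHO and 176, 348, 408, 452 and 273 FPKM in HO (-2.59 ± 0.28, adjusted p = 8.24e-05). DHO 5 was the highest of DHO and remained below HO 1, the lowest of HO. The epidermal growth factor receptor ligands amphiregulin (Areg) and epiregulin (Ereg) were lower (Areg -2.76 ± 0.38, adjusted p = 0.000329; Ereg -2.05 ± 0.29, adjusted p = 0.000337). Areg was measured at 22.5, 11.4, 20.4, 20.8 and 12.2 FPKM in DHO and at 111, 189, 159, 178 and 41.3 FPKM in HO, with no overlap between the groups. The annexin Anxa3 (-0.95 ± 0.18, adjusted p = 0.00156) and the YAP target Ccn2 (-1.85 ± 0.35, adjusted p = 0.00159) were also lower. The Ly6a gene is also induced by interferon, and it is part of the fetal-like list here.

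Targets of the glucocorticoid receptor fell as a group. Of 14 tested glucocorticoid targets, 12 were lower and 1 higher in DHO, with a median of -1.61, against a background of 11.3% lower. Errfi1, which encodes an inhibitor of the epidermal growth factor receptor, stood at 34.2, 26.2, 16.2, 15.6 and 18.8 FPKM in DHO and 121, 157, 106, 145 and 61.5 FPKM in HO (-2.35 ± 0.28, adjusted p = 0.000142). Pdk4, the kinase that turns off pyruvate dehydrogenase in fasting, stood at 0.993, 1.46, 1.55, 1.41 and 2.33 FPKM in DHO and 16.7, 31.2, 7.46, 22.6 and 8.60 FPKM in HO (-2.68 ± 0.34, adjusted p = 0.000194). No value of either gene overlapped between the groups. Tsc22d3, which encodes the steroid-induced protein GILZ (-1.29 ± 0.18, adjusted p = 0.000366), and Per1, a clock gene with a glucocorticoid response (-1.18 ± 0.16, adjusted p = 0.000281), fell likewise. Fkbp5, a chaperone of the glucocorticoid receptor, stood at 16.7, 17.6, 7.04, 7.62 and 19.0 FPKM in DHO and 82.0, 86.5, 61.8, 71.1 and 16.9 FPKM in HO (-2.07 ± 0.44, adjusted p = 0.00296), where HO 5 lay within the DHO range. The single member that was higher, Hsd11b2, encodes the enzyme that inactivates corticosterone, and it stood at 15.1, 14.8, 4.84, 4.86 and 14.1 FPKM in DHO and 0.501, 0.633, 5.21, 0.765 and 5.16 FPKM in HO (1.93 ± 0.50, adjusted p = 0.00873). Without DHO 1, HO 2 and HO 4 the Hsd11b2 call was lost (adjusted p = 0.147) and 10 members were lower. The list shares Cdkn1a, Per1, Lcn2, Dusp1, Pdk4 and the metallothioneins Mt1 and Mt2 with other lists used here.

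Of 10 metallothionein and zinc transport genes, 5 were lower and 2 higher (7 and 0 after rescaling, 3 and 0 without DHO 1, HO 2 and HO 4, 4 and 1 without DHO 2 and without DHO 3, DHO 4 and HO 1). These counts and those of immediate early genes below stand beside 11.3% lower and 37.6% higher over all tested genes. After rescaling the shares were 21.4% lower and 20.3% higher. The metallothioneins, small zinc-binding proteins induced by zinc, glucocorticoids and cytokines, were both lower. Mt2 stood at 38.1, 27.5, 36.1, 33.3 and 39.5 FPKM in DHO and 202, 206, 268, 447 and 80.5 FPKM in HO (-2.56 ± 0.35, adjusted p = 0.000312), with HO 5 nearest to DHO and HO 4 farthest. Mt1 fell by 1.46 ± 0.25 (adjusted p = 0.00109). Immediate early genes, which respond within minutes to growth factors and stress, were lower for 7 of 15 and higher for none (11 lower after rescaling). Ier3 (-1.59 ± 0.16, adjusted p = 6.64e-05), Junb (-0.63 ± 0.13, adjusted p = 0.00305) and Klf2 (-1.61 ± 0.27, adjusted p = 0.00088) fell. The orphan receptor Nr4a1, which passed the filter through HO alone, was lower by 1.43 ± 0.17. Klf2 stood at 5.43, 3.46, 3.33, 3.58 and 3.51 FPKM in DHO and 15.4, 13.6, 15.2, 23.3 and 6.16 FPKM in HO, and DHO 1 lay apart from the other DHO libraries.

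Genes of cell division were higher in DHO. Of 24 mitosis genes listed 23 passed the filter, 7 of them through DHO alone, and the other 16 were all called higher, with a median of 1.86. Of 32 DNA replication genes listed 30 passed, 3 of them through DHO alone, and the other 27 were all called higher, with a median of 1.17. Of all tested genes 37.6% were called higher. After rescaling 16 of the 16 mitosis genes and 26 of the 27 replication genes were called higher. Ccnb2, which encodes the mitotic cyclin B2, stood at 13.9, 11.1, 12.3, 12.7 and 20.9 FPKM in DHO and 1.92, 1.32, 2.61, 1.82 and 1.84 FPKM in HO (2.37 ± 0.17, adjusted p = 3.21e-05). Mki67, the proliferation antigen Ki-67, stood at 8.14, 7.67, 7.46, 7.21 and 14.2 FPKM in DHO and 1.44, 1.05, 1.48, 2.20 and 1.41 FPKM in HO (1.96 ± 0.18, adjusted p = 5.33e-05). Every HO library was below the lowest DHO library for both, and DHO 5 was the highest. Cyclin B1 (Ccnb1, 2.21 ± 0.20) and survivin (Birc5, 1.85 ± 0.17) rose by similar amounts. Levels in WT averaged 16.1 ± 3.21 FPKM for Ccnb2 and 10.7 ± 1.63 FPKM for Mki67.

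Replication genes are transcribed under E2F factors, whose site was searched as TTTCCCGC or TTTGGCGC on either strand. These letters occur in 1.80% of promoters of all 27025 genes, in 3.33% of those of tested genes, in 8 of 24 matched promoters of the replication list (33.3%) and in 0 of 18 of the mitosis list. Unlike the called counts, these promoter counts include the genes that passed the filter through DHO alone. The promoters of 2 helicase subunit genes are shown with the matches in capitals, on GRCm38.p6 from RefSeq, with the same bounds as above.
Mcm5 (chr8:75109259-75109558, + strand): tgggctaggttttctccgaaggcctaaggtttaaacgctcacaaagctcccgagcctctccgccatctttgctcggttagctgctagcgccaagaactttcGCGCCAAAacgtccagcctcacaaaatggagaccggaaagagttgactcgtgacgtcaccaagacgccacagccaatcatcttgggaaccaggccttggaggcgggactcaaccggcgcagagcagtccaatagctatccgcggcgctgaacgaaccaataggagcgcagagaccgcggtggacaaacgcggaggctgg
Mcm6 (chr1:128359656-128359955, - strand): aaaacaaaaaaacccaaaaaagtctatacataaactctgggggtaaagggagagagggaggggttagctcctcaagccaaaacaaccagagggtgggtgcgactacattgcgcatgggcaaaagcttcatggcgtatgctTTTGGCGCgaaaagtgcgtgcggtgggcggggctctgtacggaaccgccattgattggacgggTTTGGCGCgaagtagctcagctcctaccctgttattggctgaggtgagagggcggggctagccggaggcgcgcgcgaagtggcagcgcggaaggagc

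Mcm5 stood at 7.40, 7.36, 6.08, 6.76 and 12 FPKM in DHO and 1.47, 1.72, 2.00, 3.74 and 1.18 FPKM in HO (1.58 ± 0.22, adjusted p = 0.000347). Mcm6 stood at 9.17, 8.39, 8.09, 8.54 and 14.5 FPKM in DHO and 2.01, 2.34, 2.94, 4.56 and 1.88 FPKM in HO (1.53 ± 0.21, adjusted p = 0.000268). For both, DHO 5 was highest and no HO library reached a DHO library. Thymidine kinase (Tk1, 2.20 ± 0.20, adjusted p = 5.03e-05), the maintenance methylation factor Uhrf1 (1.88 ± 0.18, adjusted p = 5.58e-05) and the ribonucleotide reductase subunit Rrm1 (1.54 ± 0.16, adjusted p = 6.64e-05) led the list by p.

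Of 15 crypt stem cell and Wnt target genes 7 were higher in DHO and 1 lower, beside 37.6% higher and 11.3% lower over all tested genes (8 higher and none lower without DHO 3, DHO 4 and HO 1; 3 higher and none lower without DHO 1, HO 2 and HO 4; 6 higher and 3 lower after rescaling). Lgr5, the marker receptor of crypt base stem cells, was below the filter and was not tested. Olfm4, a secreted protein of crypt stem cells, stood at 56.9, 78.5, 89.4, 110.1 and 152 FPKM in DHO and 3.15, 0.259, 6.88, 0.248 and 2.47 FPKM in HO (5.05 ± 0.48, adjusted p = 5.58e-05). Ascl2, a transcription factor of stem cell identity, passed the filter through DHO alone. It stood at 1.73, 1.27, 1.39, 1.27 and 1.94 FPKM in DHO and 0.0311, 0.0947, 0.107, 0.141 and 0.188 FPKM in HO (1.17 ± 0.10). Olfm4 did not overlap between the groups, and HO 2 and HO 4 held the least of it. Cdca7 (1.84 ± 0.16, adjusted p = 5.03e-05), the crypt chloride cotransporter Slc12a2 (1.46 ± 0.30, adjusted p = 0.00266) and Sox9 (0.59 ± 0.15, adjusted p = 0.00801) also rose, Sox9 not without DHO 1, HO 2 and HO 4 (adjusted p = 0.0726). The member that fell was the hyaluronan receptor Cd44 (-0.68 ± 0.21, adjusted p = 0.0219). Its call was lost without DHO 4 (adjusted p = 0.0535), HO 2 (0.0553) or HO 4 (0.0527). The Cd44 call was also lost without DHO 3, DHO 4 and HO 1 (adjusted p = 0.0869) and without DHO 1, HO 2 and HO 4 (adjusted p = 0.178).

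**Figure D4:**
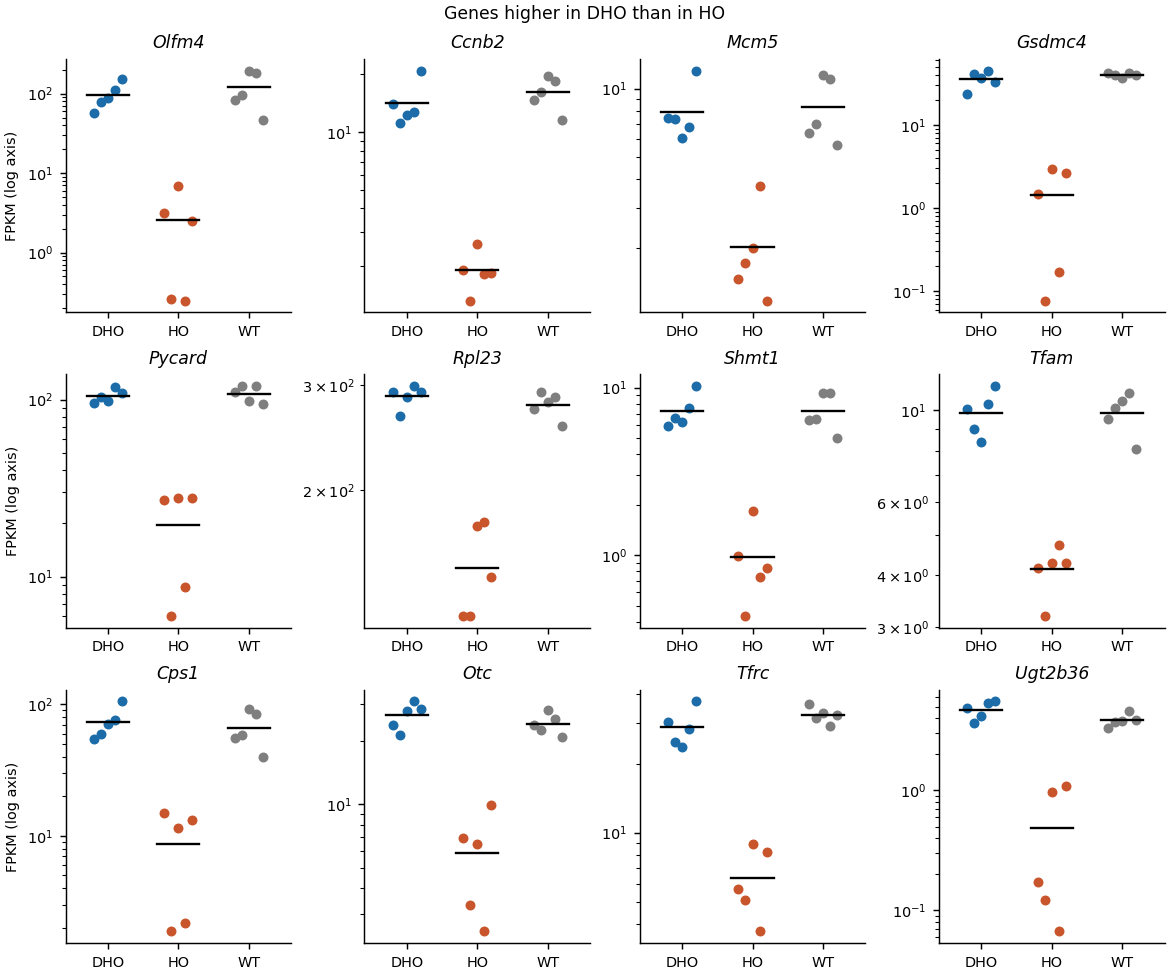
FPKM on a log axis in each library for 12 genes that were higher in DHO, with DHO at the left of each panel, HO in the middle and WT at the right (points are libraries, bars are group means, n = 5 each). For Olfm4 the DHO libraries lie at 56.9 to 152 and the HO libraries at 0.248 to 6.88 FPKM.

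Genes for making ribosomes and mitochondria also rose. Among all tested genes 37.6% were called higher, and 20.3% after rescaling. All 30 tested cytosolic ribosomal protein genes were higher in DHO, with a median of 0.99 and no overlap between the groups in any of them, and 30 were called higher after rescaling. Rpl23 stood at 292, 266, 287, 299 and 292 FPKM in DHO and 123, 123, 174, 177 and 143 FPKM in HO (0.97 ± 0.13, adjusted p = 0.000273), beside 278 ± 14.0 FPKM in WT. Rps18 averaged 785 ± 72.4 FPKM in DHO and 348 ± 86.8 FPKM in HO (SD, n = 5 each; 1.20 ± 0.17). Ribosomal protein genes have many processed copies, so reads may be shared with them. Of 29 ribosome biogenesis genes 23 were higher and none lower (14 after rescaling, 13 without DHO 3, DHO 4 and HO 1), among them the RNA pseudouridine synthase Dkc1 (1.29 ± 0.18, adjusted p = 0.000291) and fibrillarin (Fbl, 1.11 ± 0.17, adjusted p = 0.000532).

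All 24 tested genes of the mitochondrial ribosome and import machinery were higher, 19 of them after rescaling. Counts here stand beside 37.6% higher over all tested genes as deposited and 20.3% after rescaling. Tfam, which packs and transcribes mitochondrial DNA, stood at 10.1, 9.04, 8.42, 10.4 and 11.5 FPKM in DHO and 4.17, 3.19, 4.28, 4.75 and 4.29 FPKM in HO (1.08 ± 0.12, adjusted p = 0.000108), and every DHO library held more than any HO library. The ribosomal subunit gene Mrps22 rose by 1.52 ± 0.18 (adjusted p = 0.000141). The chaperonin Hspd1 rose by 1.67 ± 0.23 (adjusted p = 0.000351). By contrast, 27 of 30 nuclear genes of oxidative phosphorylation were called higher as deposited and 3 after rescaling, and 20 of 26 proteasome genes as deposited and 1 after rescaling, so these calls depend on the scale. Without DHO 1, HO 2 and HO 4 the counts were 14 and 6, and without DHO 3, DHO 4 and HO 1 7 proteasome genes were called. Of 21 genes of nucleotide and one-carbon synthesis, 15 were higher and 1 lower (13 and 0 without DHO 1, HO 2 and HO 4). Shmt1, which moves one-carbon units from serine, stood at 5.86, 6.61, 6.21, 7.51 and 10.2 FPKM in DHO and 0.990, 0.432, 1.84, 0.743 and 0.835 FPKM in HO (2.09 ± 0.19, adjusted p = 5.23e-05), with the groups apart. Mthfd1 (1.83 ± 0.17, adjusted p = 5.33e-05) and the purine enzyme Atic (1.36 ± 0.19, adjusted p = 0.000295) followed.

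Counts for differentiated lineages stand beside 37.6% higher and 11.3% lower over all tested genes. Of 18 tested Paneth cell genes 8 were higher in DHO and none lower, with a median of 1.12; without DHO 3, DHO 4 and HO 1 the counts were 5 higher and 2 lower, and without HO 5 they were 7 and 1. The potassium channel Kcnn4 (1.20 ± 0.19, adjusted p = 0.000708), Habp2 (0.95 ± 0.21, adjusted p = 0.00329) and the lectin Itln1 (1.69 ± 0.39, adjusted p = 0.00478) rose. Lyz1, the Paneth cell lysozyme, stood at 695, 1253, 1566, 2002 and 2043 FPKM in DHO and 216, 287, 1218, 444 and 341 FPKM in HO (1.78 ± 0.44, adjusted p = 0.00678), where HO 3 lay within the DHO range. Without DHO 3, DHO 4 and HO 1 the adjusted p of Lyz1 was 0.0652, and with libraries weighted by quality it was 0.0717. Ang4, an antimicrobial ribonuclease, rose by 2.50 ± 0.58 (adjusted p = 0.00516). The α-defensins, antimicrobial peptides encoded by near-identical genes, did not rise together. Defa21 stood at 0, 492, 1064, 1251 and 0.0611 FPKM in DHO and 53.1, 273, 643, 528 and 664 FPKM in HO. DHO 1 and DHO 5 held almost none of it, DHO 2 to DHO 4 held far more, and it did not pass the test.

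Of 19 tested goblet cell genes 8 were higher and 1 lower, 7 higher and 5 lower after rescaling, 7 and 3 without HO 1, and 1 higher and none lower without DHO 1, HO 2 and HO 4. Agr2, the disulfide isomerase needed for mucin folding, rose by 1.08 ± 0.26 (adjusted p = 0.00558, and 0.0726 without those 3 libraries). Spink4 (1.48 ± 0.35, 0.00569 against 0.0638) and the secretory regulator Creb3l1 (0.85 ± 0.17, 0.00264 against 0.0517) likewise lost their calls. Of 8 tested tuft cell genes 3 were lower (1 without DHO 3, DHO 4 and HO 1), including the prostaglandin synthase Ptgs1 (-1.05 ± 0.21, adjusted p = 0.0025). Of 15 tested enteroendocrine genes 5 were lower (2 when DHO 1, DHO 4, HO 2, HO 3 or HO 4 was left out, 3 without DHO 3 and without DHO 3, DHO 4 and HO 1, and 1 without DHO 1, HO 2 and HO 4; 1 was higher without HO 3), including the prohormone convertase Pcsk1, which stood at 3.74, 3.12, 1.87, 1.83 and 3.95 FPKM in DHO and 8.03, 19.3, 7.58, 17.1 and 4.41 FPKM in HO (-1.52 ± 0.34, adjusted p = 0.00419). HO 2 and HO 4 held the most, and HO 5 lay just above the DHO range.

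As deposited, digestion and transport genes of enterocytes were called about as often as all tested genes (37.6% higher and 11.3% lower) or less. After rescaling 20.3% of all tested genes were higher and 21.4% lower, and brush border enzymes were called lower more often than that. Of 18 brush border enzymes 2 were lower and none higher (7 lower after rescaling; 1 without DHO 2, DHO 3, DHO 4, HO 2 or HO 3; 4 without HO 1 or HO 5, with 2 higher without HO 1; 4 lower and 1 higher without DHO 3, DHO 4 and HO 1; 1 lower without DHO 1, HO 2 and HO 4), among them the peptidase Dpp4 (-0.66 ± 0.12, adjusted p = 0.00164). Of 25 nutrient transporters 7 were higher and 3 lower as deposited, and 3 higher and 6 lower after rescaling, and 1 was lower without DHO 1 or DHO 2. The counts were 4 higher and 5 lower without DHO 3, DHO 4 and HO 1, and 2 higher and 1 lower without DHO 1, HO 2 and HO 4. Tfrc, the transferrin receptor that takes up iron in dividing cells, stood at 30.5, 24.9, 23.6, 28.4 and 37.3 FPKM in DHO and 5.67, 5.06, 8.91, 3.71 and 8.25 FPKM in HO (2.07 ± 0.21, adjusted p = 6.6e-05). No HO library reached the lowest DHO library. Slc6a19, the main neutral amino acid transporter of the brush border, was lower in DHO (-0.87 ± 0.16, adjusted p = 0.0013). Of 17 junction genes 6 were higher and none lower (3 higher and 6 lower after rescaling; 2 higher without DHO 1, HO 2 and HO 4), beside 37.6% higher over all genes, led by occludin (Ocln, 0.90 ± 0.14, and 0.60 after rescaling). Of 18 glycolysis genes 6 were lower, among them hexokinase 2 (Hk2, -2.06 ± 0.39, adjusted p = 0.00164) and the glucose carrier GLUT1 (Slc2a1, -0.85 ± 0.16, adjusted p = 0.00183), and 3 were higher (5 without HO 1; 1 after rescaling). Of the glycolysis genes 2 were lower and 1 higher without DHO 1, HO 2 and HO 4.

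Several groups of metabolic enzymes held more higher than lower genes, as did all tested genes as deposited (37.6% higher and 11.3% lower). After rescaling the shares over all tested genes were 20.3% higher and 21.4% lower. Of 12 tested genes of the urea cycle and arginine metabolism 8 were higher and 1 lower in DHO, with a median of 1.17 (7 and 2 after rescaling; 8 and 2 without DHO 3, DHO 4 and HO 1; 5 and 0 without DHO 1, HO 2 and HO 4). Cps1, which makes carbamoyl phosphate for citrulline synthesis, stood at 54.3, 59.1, 71.0, 75.6 and 106 FPKM in DHO and 14.9, 1.87, 11.4, 2.16 and 13.1 FPKM in HO (3.25 ± 0.49, adjusted p = 0.000498). Otc, which joins it to ornithine, stood at 23.8, 21.3, 27.9, 30.9 and 28.5 FPKM in DHO and 6.88, 3.34, 6.51, 2.49 and 9.97 FPKM in HO (2.12 ± 0.28, adjusted p = 0.000237). Both enzymes separated the groups, and for both HO 2 and HO 4 were the lowest. Oat (2.45 ± 0.22, adjusted p = 5.03e-05) and Aldh18a1 (1.82 ± 0.27, adjusted p = 0.000454), which supply ornithine and its precursor, rose as well. Ass1, which uses citrulline up, went the other way (-0.92 ± 0.23, adjusted p = 0.00741, and 0.103 without DHO 1, HO 2 and HO 4).

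In cholesterol synthesis and uptake 13 of 25 genes were higher and none lower (7 higher and 1 lower after rescaling; 7 and 0 without DHO 1, HO 2 and HO 4). Over all tested genes 37.6% were higher and 11.3% lower, and after rescaling 20.3% and 21.4%. Acat2, the cytosolic thiolase at the head of cholesterol synthesis, rose by 1.32 ± 0.22 (adjusted p = 0.000892) and the decarboxylase Mvd by 1.61 ± 0.28 (adjusted p = 0.000983). Fatty acid synthesis showed 11 of 16 genes higher and 1 lower (7 and 1 after rescaling, and 7 and 1 without DHO 1, HO 2 and HO 4), including the regulator ChREBP (Mlxipl, 0.99 ± 0.16), the elongase Elovl5 (0.93 ± 0.16) and fatty acid synthase (Fasn, 1.17 ± 0.20, adjusted p = 0.00113). In fatty acid oxidation and ketogenesis 14 of 22 were higher and 3 lower (7 and 3 after rescaling). Ppara, the nuclear receptor that drives the pathway, rose by 1.301 ± 0.21 (adjusted p = 0.000676), as did its peroxisomal target Ehhadh (1.24 ± 0.21) and the ketone enzyme Bdh1 (1.17 ± 0.20), whereas Acadl fell (-1.04 ± 0.17, adjusted p = 0.000784).

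Detoxification genes that passed the test were higher in DHO. Of 17 cytochrome P450 genes 8 were higher and none lower (10 higher and 3 lower without DHO 3, DHO 4 and HO 1; 4 higher without DHO 1, HO 2 and HO 4), beside 37.6% higher over all genes, and of 32 conjugation genes 20 were higher and none lower (14 higher and 2 lower after rescaling; 18 and 1 without DHO 3, DHO 4 and HO 1). Without DHO 3 or DHO 4, 1 of the P450 genes was called lower, and without DHO 5, HO 1 or HO 5 so was 1 of the conjugation genes. Cyp2c55 stood at 160.1, 162, 30.0, 31.6 and 75.8 FPKM in DHO and 0.290, 0.663, 1.69, 1.11 and 10.6 FPKM in HO (4.76 ± 0.65, adjusted p = 0.000317). DHO 3 and DHO 4, the libraries with proximal transcripts, were the lowest of DHO, and HO 5 was the highest of HO. The neighbouring gene Cyp2c65 rose by 1.80 ± 0.33 (adjusted p = 0.0014). Cyp2u1, which passed the filter through DHO alone, rose by 1.56 ± 0.16. The glucuronidation enzyme Ugt2b36 stood at 4.82, 3.65, 4.15, 5.38 and 5.52 FPKM in DHO and 0.172, 0.121, 0.979, 0.0669 and 1.10 FPKM in HO (1.99 ± 0.21, adjusted p = 8.37e-05). HO 3 and HO 5 held about 1 FPKM of it and the other HO libraries almost none. The glutathione transferase Gsta3 rose by 1.501 ± 0.19 (adjusted p = 0.000188). The carboxylesterases Ces2a (1.34 ± 0.23) and Ces2b (1.14 ± 0.15) rose too. Ces2b passed the filter through DHO alone. These are multigene families whose members may share reads. Of 17 genes that answer to the antioxidant regulator NRF2, 9 were higher and 1 lower (3 and 1 after rescaling; 5 and 1 without DHO 1, HO 2 and HO 4). Beside these counts, 37.6% of all tested genes were higher and 11.3% lower, and 20.3% and 21.4% after rescaling. Gclm, a subunit of the enzyme that starts glutathione synthesis, rose (1.00 ± 0.15, adjusted p = 0.000541) and the heme oxygenase Hmox1 fell (-1.13 ± 0.20, adjusted p = 0.00109).

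Markers of other cell types in the wall were lower in DHO where they passed the test. Their counts stand beside 11.3% lower over all tested genes, and 21.4% after rescaling. Of 10 endothelial genes 8 were lower (5 without DHO 3, DHO 4 and HO 1, and 5 without DHO 1, HO 2 and HO 4), with a median of -1.04, and of 17 fibroblast and matrix genes 9 were lower (5 without DHO 1, HO 2 and HO 4), with a median of -0.74. Esam, an adhesion molecule of vessels, stood at 3.33, 3.02, 2.76, 2.83 and 2.94 FPKM in DHO and 11.4, 6.19, 9.38, 13.6 and 5.59 FPKM in HO (-1.299 ± 0.21, adjusted p = 0.000641), with the groups apart. Egfl7 (-0.92 ± 0.18) and the fenestra protein Plvap (-1.45 ± 0.30, adjusted p = 0.00261) fell too. Timp1, the metalloprotease inhibitor induced in inflamed stroma, stood at 0.457, 1.78, 1.70, 1.51 and 0.863 FPKM in DHO and 8.83, 5.29, 8.58, 9.57 and 5.20 FPKM in HO (-1.91 ± 0.22, adjusted p = 0.000141). Timp1 did not overlap between the groups. The mesenchymal receptor Pdgfrb (-0.84 ± 0.16, adjusted p = 0.00174) and fibronectin (Fn1, -1.54 ± 0.29, adjusted p = 0.00177) fell likewise. Of 8 genes of enteric neurons and glia 5 were lower (1 without DHO 1, HO 2 and HO 4, and 3 without DHO 1, DHO 4, HO 2 or HO 4). The neuronal tubulin Tubb3 (-1.41 ± 0.28, adjusted p = 0.00196) fell. The glial filament Gfap, which passed the filter through HO alone, was lower by 1.57 ± 0.23. Of 13 smooth muscle genes 1 was lower and none higher. That count was 8 without HO 1, 2 without DHO 5 and 0 when DHO 1, DHO 3, DHO 4, HO 2, HO 3, HO 4 or HO 5 was left out, or all of DHO 1, HO 2 and HO 4. It was 2 after rescaling.

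Immune cell markers depended on which libraries were counted, and 11.3% of all tested genes were called lower in DHO. Of 12 tested T and NK cell genes 6 were lower in DHO, among them granzyme B (Gzmb), at 6.03, 8.73, 11.6, 12.3 and 12.1 FPKM in DHO and 71.5, 45.1, 34.4, 55.7 and 21.7 FPKM in HO (-1.999 ± 0.29, adjusted p = 0.00045). HO 5 held the least of HO and more than any DHO library. In WT libraries Gzmb averaged 39.9 ± 13.4 FPKM, near the HO mean of 45.7 FPKM and above the DHO mean of 10.1 FPKM. Without DHO 1, HO 2 and HO 4, 1 of the 12 was called. Of 13 macrophage genes 8 were lower, 2 without DHO 3, DHO 4 and HO 1, none without DHO 1, HO 2 and HO 4, and 4 or 5 when any one of DHO 1, DHO 3, DHO 4, HO 2, HO 3 and HO 4 was left out. Cd68 fell by 1.10 ± 0.27 (adjusted p = 0.00715, and 0.0661 without DHO 1, HO 2 and HO 4). Of 7 plasma cell genes 5 were lower (3 when DHO 3, DHO 4, HO 2, HO 3 or HO 4 was left out and without DHO 1, HO 2 and HO 4, 2 without DHO 3, DHO 4 and HO 1, and 6 lower and 1 higher without HO 5), led by the regulator Prdm1 (-0.96 ± 0.20, adjusted p = 0.00257), which epithelial cells can also express. The part of these cells in the falls of interferon and chemokine genes was not tested.

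**Figure D5:**
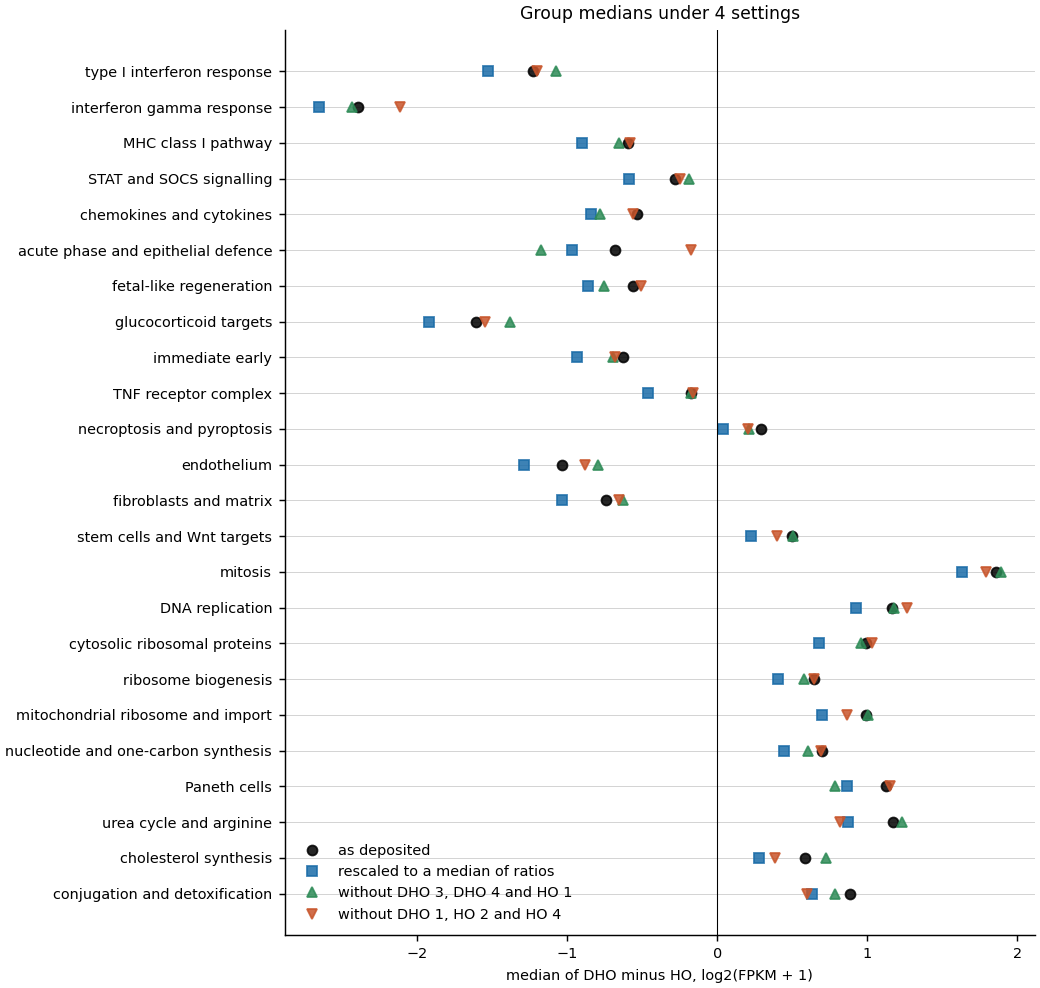
Median of DHO minus HO in log2(FPKM + 1) for 24 gene groups under 4 settings. These are as deposited, after rescaling to a median of ratios, without DHO 3, DHO 4 and HO 1, and without DHO 1, HO 2 and HO 4. The first 3 libraries left out hold proximal transcripts, and the other 3 are rich in B cell transcripts. The interferon gamma median is -2.40 as deposited and all 4 medians of the mitosis group are above 1. Genes that passed the filter through 1 group alone are left out.

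Further genes among the 12 largest falls and the 12 largest rises with separate groups are given by size. Iigp1, Rasd1 and Gstm3 belong to the interferon gamma, glucocorticoid and conjugation lists above, and the others named here to no list. Plat, the tissue plasminogen activator, stood at 2.02, 3.53, 3.78, 2.38 and 3.14 FPKM in DHO and 26.8, 68.8, 47.1, 66.3 and 10.7 FPKM in HO (-3.26 ± 0.43, adjusted p = 0.000237). HO 5 was again the lowest of HO and above all of DHO. Gml (-3.10 ± 0.35), the predicted gene Gm31235 (-3.59 ± 0.51) and Iigp1, an immunity-related GTPase (-4.04 ± 0.35), were also lower. Rasd1, a small GTPase first found as a dexamethasone-induced gene, stood at 0.788, 1.21, 2.39, 1.36 and 0.842 FPKM in DHO and 199, 25.9, 3.72, 49.1 and 4.62 FPKM in HO (-3.38 ± 0.87, adjusted p = 0.00846). Its HO values run from a few FPKM to almost 200, and without DHO 1, HO 2 and HO 4 its adjusted p was 0.136. Among rises, Fgfbp1, a carrier of fibroblast growth factors, stood at 39.8, 48.7, 22.8, 26.1 and 55.8 FPKM in DHO and 0.906, 1.15, 10.6, 1.83 and 15.8 FPKM in HO (3.001 ± 0.59, adjusted p = 0.00216, and 0.0502 without DHO 1, HO 2 and HO 4). HO 3 and HO 5 were the highest of HO, below every DHO library. Rbp7, a retinol binding protein that passed the filter through DHO alone, rose by 2.90 ± 0.20. Kcne3, the potassium channel subunit needed for crypt chloride secretion, rose by 2.79 ± 0.25 (adjusted p = 5.03e-05). Gstm3, a glutathione transferase, rose by 3.35 ± 0.67, the phosphatase inhibitor Ppp1r1b by 3.05 ± 0.68 (1.83 without DHO 1, HO 2 and HO 4) and the aldo-keto reductase Akr1c19 by 2.65 ± 0.54 (1.74 without them).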

How the data were processed

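Whole mouse ileum was sequenced in 15 libraries, 5 per genotype, and groups were taken from the genotype labels. Per the labels' protocols, total RNA was extracted with TRIzol and libraries were built with a VAHTS Universal V6 kit. Per the submitters' processing notes, the authors used fastp, HISAT2, HTSeq and the mm10 genome; versions, settings, strand use and annotation are not given in the sources used here. The deposited values are FPKM, a unit read from the values because the file names none. Each gene's FPKM values were whole multiples of what 1 read is worth, and whole reads (within 0.02 of a read) were recovered in every library for 100.0% of the 24836 genes with a value above 0. These recovered reads gave the depths and the alternative count-based fits. Reads carry no molecular identifiers, so depth describes counting error only.

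The filter kept a gene that reached 1 FPKM in 5 or more of the 10 DHO and HO libraries. Differences are of mean log2(FPKM + 1), so those of genes near or below 1 FPKM are understated. Tests were two-sided with limma-trend and robust moderation (limma 3.58.1, R 4.3.3), with p-values adjusted across the whole filtered table by the Benjamini-Hochberg method and a threshold of 0.05. Summaries used Python 3.11.15 and pandas 2.3.3, and the fit was tested on simulated data. Alternatives were the pseudocount, the filter, quantile and median-of-ratios scaling, voom on recovered reads, all 15 libraries in 1 fit, array weights, moderation without robustness, and leaving libraries out. WT values are levels only. Any member of a list could be named, first the called members with the smallest adjusted p and then members not called, by mean level; Ripk1 and Map3k7 were always named, and so could be the 12 largest rises and 12 largest falls among called genes that averaged 1 FPKM or more and whose groups did not overlap. The members, lists and tests were chosen with earlier results of these data known. Coordinates and promoters are RefSeq's on GRCm38.p6, the assembly behind mm10; 10853 of the 10870 tested genes had a position. The list of mitochondrially encoded genes matched no symbol. Lists for B cells, neutrophils, red cells and exocrine pancreas had 2, 1, 2 and 1 members compared; 1 neutrophil gene and 2 red cell genes were called lower in DHO (none without DHO 1, HO 2 and HO 4) and none of the others was called. A few genes are not reported here.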

Additional observations from a re-analysis of the deposited data

Results flagged for a closer look

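Each value below is the FPKM of 1 library that lay far from the other 4 of its genotype: its gap to the nearest of them exceeded 0.71 of the range of all 5, on the log2(FPKM + 1) scale. Chance gives about 1 in 20 such groups, and 18 of 344 groups checked met it.

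In DHO, DHO 5 was the highest library for the division genes Mki67 (14.2), Rrm1 (13.8), Mcm5 (12) and Mcm6 (14.5). DHO 2 was the lowest for the interferon gene Usp18 (5.10), for the clock repressor Nr1d1 (14.8) and for the amino acid transporter Slc6a19 (250.4). DHO 1 was the lowest for the lectin Reg3g (3497) and the highest for Klf2 (5.43).

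In HO, HO 5 was the lowest library for Saa3 (12.9), Lcn2 (3.77), Fkbp5 (16.9) and Hmox1 (2.22). HO 1 was the lowest for Map3k7 (6.88) and for the carboxylesterase Ces2b (0.022), the highest for the TNF receptor gene Tnfrsf1a (231.5), and the highest on the second principal component, at a score of 52.7. HO 2 was the lowest for Ripk3 (28.7).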

How the results depend on the processing

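The count of called genes, 5322 (4091 higher and 1231 lower in DHO; 1293 by a doubling or more), moved with the scale, the filter and the libraries used. Quantile normalization gave 2652 higher and 2095 lower, median-of-ratios scaling 2202 and 2330, and voom on recovered reads with median-of-ratios factors 2199 and 2332. A mean of at least 5 FPKM gave 3333 called (2638 higher and 695 lower) among fewer genes tested. Without DHO 1, HO 2 and HO 4 there were 2967 (2381 higher and 586 lower, 854 by a doubling), among fewer libraries. Calls by a doubling numbered 2042 with a pseudocount of 0.1 and 2132 with voom and library totals, which understate low genes less; voom with library totals called 5333 genes in all. Leaving out each library in turn gave 4504 to 5704 called, 3460 to 4381 higher, 940 to 1547 lower and 1074 to 1528 by a doubling. Of the 24 largest changes, 22 to 24 passed under each alternative. They were picked as called and separate in these same libraries, so that figure does not measure how stable calls are. Map3k7, not called at 0.09, turned to -0.17 with quantile, -0.19 with median-of-ratios scaling and -0.22 with voom and median-of-ratios factors. Over the 166 named genes 3952 comparisons with alternatives were made: 3924 kept direction and side of the threshold, 25 lost the call, and 3 (Map3k7) reversed. Named genes were taken first from called members with the smallest adjusted p, so this share does not stand for all tested genes. No paired analysis was possible because replicate numbers follow accession order and pair nothing. Genes near 1 FPKM are limited by depth and by the pseudocount.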

Other observations

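Clock and position genes were measured outside the comparisons above. Of 12 clock genes that did not pass the filter through 1 group alone, 4 were higher and 1 lower in DHO, and 1 was higher and 2 lower after rescaling each library to a median of ratios. The number higher was 2 without DHO 1 and 1 without DHO 1, HO 2 and HO 4, and the number lower was 2 without HO 1. Dbp, a clock output factor that passed the filter through DHO alone, stood at 4.07, 4.60, 3.78, 2.54 and 5.48 FPKM in DHO and 0.406, 0.252, 0.438, 0.580 and 0.170 FPKM in HO (log2 difference 1.88 ± 0.16 SE), beside 2.17 ± 1.29 FPKM in WT (SD, n = 5). Nr1d1, the clock repressor REV-ERBα, stood at 26.0, 14.8, 22.99, 23.4 and 25.3 FPKM in DHO and 8.57, 4.49, 13.1, 5.81 and 5.19 FPKM in HO (1.54 ± 0.25, limma adjusted p = 0.00074), with no overlap. The hour at which tissue was taken is not given in the sources used here.

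Osr2, a transcription factor listed among distal markers, stood at 85.3, 82.6, 45.5, 50.8 and 78.4 FPKM in DHO and 7.89, 7.47, 19.97, 6.86 and 35.8 FPKM in HO (2.31 ± 0.41, adjusted p = 0.00123), with DHO 3 and DHO 4 the lowest of DHO and no overlap. Fgf15, the hormone that ileal enterocytes release in response to bile acids, stood at 2.11, 1.85, 49.3, 48.6 and 8.27 FPKM in DHO and 0, 0.478, 0.272, 0.852 and 3.20 FPKM in HO (2.75 ± 0.83, adjusted p = 0.0184). DHO 3 and DHO 4 held most of it, and without these and HO 1 the difference was 1.15 (adjusted p = 0.0925). The call was also lost without DHO 1, HO 2 and HO 4 (adjusted p = 0.0685) and with libraries weighted by quality (adjusted p = 0.0893). Of the bile acid exporter subunits of the enterocyte, Slc51b stood at 957, 880.4, 804, 925 and 851 FPKM in DHO and 927, 1642, 1577, 1534 and 1212 FPKM in HO (-0.61 ± 0.16, adjusted p = 0.00958), a call lost without DHO 1, HO 2 and HO 4 (adjusted p = 0.0967). Its partner Slc51a, at 520 to 649 FPKM in DHO and 97.9 to 731 FPKM in HO, did not pass the test (adjusted p = 0.321).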
